A study of Mus musculus with 16 samples.

Results

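H3K27me3 regions present only in the list of aged hematopoietic stem cells (HSCs) were examined on chromosomes 1 to 19. The members were chosen by the H3K27me3 calls themselves: a region of the aged list was aged-only when it shared not even 1 bp with any region of the young list. Of 15926 aged regions on these chromosomes, 3759 (23.6%) were aged-only and 12167 overlapped a young region and are called shared. The young list was longer, with 50640 regions on the same chromosomes, of which 42176 had no aged overlap and are called young-only. An aged-only region is therefore one that was not called in young HSCs, and the lists do not show that its H3K27me3 was absent there. With the young list cut to the aged number of regions by −log10 q, 6699 aged regions (42.1%) had no young overlap, and with a −log10 q of at least 2 in the aged list 557 of 4433 (12.6%) had none.

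The cells were HSCs sorted from the bone marrow of C57BL/6 mice as c-kit+ and Sca-1+ cells that lacked lineage markers and the IL-7 receptor, were CD150+, and were CD34-, CD48- and Flt3-, with no genetic or drug treatment. Young mice were 10 weeks old and aged mice 20 months old, and marrow was pooled between animals before sorting. ChIP-seq was performed for H3K27me3, H2AK119ub1 and H3K4me3 beside input DNA, with 2 libraries per group and 16 libraries in all. The data are 1 peak list per mark and age, so no value has a replicate spread and no comparison between ages was tested. Intervals given below are 95% intervals over regions or genes and cover counting error only.

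H3K27me3 is deposited by Polycomb repressive complex 2 and lies in broad, discontinuous blocks over genes that a cell keeps silent, often developmental regulators and genes of other tissues. H2AK119ub1 is deposited by Polycomb repressive complex 1 and often lies in the same blocks, whereas H3K4me3 marks active or poised promoters. In HSCs, Polycomb marks cover many lineage and developmental genes that are not in use.

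The cell identity was checked at promoters, taken as 1 kb on either side of a protein-coding transcript start. Of 14 HSC and progenitor markers, 10 carried an H3K4me3 peak in young HSCs and 11 in aged HSCs. No T cell marker of 4 and no granulocyte or macrophage marker of 5 carried one at either age, and of 5 B cell markers only Ebf1, a B lineage transcription factor, did so at both ages.

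The sequences below are the middle 300 bases at most of 3 aged-only regions that mark extremes of the set: the widest, the one farthest from a young region, and the one with most bases under aged H2AK119ub1. They were read from the plus strand of RefSeq GRCm38.p6 (mm10), 5′ to 3′, and capitals mark CG dinucleotides.
Widest, chr2:54437474-54437773: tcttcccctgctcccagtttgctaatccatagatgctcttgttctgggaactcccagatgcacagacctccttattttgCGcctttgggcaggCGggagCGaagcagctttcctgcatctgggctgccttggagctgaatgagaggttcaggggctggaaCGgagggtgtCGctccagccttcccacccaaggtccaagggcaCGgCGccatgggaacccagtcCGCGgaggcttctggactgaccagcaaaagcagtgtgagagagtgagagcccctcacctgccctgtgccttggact
Farthest from a young region, chr11:26378487-26378686: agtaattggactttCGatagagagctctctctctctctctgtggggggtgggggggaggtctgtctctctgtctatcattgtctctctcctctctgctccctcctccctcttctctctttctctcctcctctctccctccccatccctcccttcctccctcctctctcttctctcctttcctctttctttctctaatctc
Most aged H2AK119ub1, chr8:18739972-18740271: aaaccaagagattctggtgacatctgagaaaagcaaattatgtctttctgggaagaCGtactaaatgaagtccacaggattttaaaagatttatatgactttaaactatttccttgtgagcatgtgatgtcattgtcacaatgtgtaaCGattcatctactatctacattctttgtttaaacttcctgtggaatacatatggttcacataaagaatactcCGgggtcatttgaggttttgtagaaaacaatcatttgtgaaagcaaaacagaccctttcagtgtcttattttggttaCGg
The stretch from the widest region held 9 CG dinucleotides at 59.3% GC. The farthest region was a pyrimidine-rich stretch, 95% repeat-masked, with 1. The stretch under aged H2AK119ub1 held 4 at 34.7% GC.

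The aged-only regions were short and weak calls. Their median width was 287 bp (281 to 291), against 438 bp (432 to 444) in shared aged regions. The narrowest was 200 bp, a width that 613 of them (16.3%) had, 286 (7.61%) were wider than 500 bp, and 1 was wider than 1 kb. Of the shared aged regions, 42.0% were wider than 500 bp and 12.9% wider than 1 kb. Median fold enrichment was 3.07 (3.06 to 3.08) in aged-only and 3.18 (3.18 to 3.19) in shared regions, and median −log10 q was 1.46 (1.44 to 1.47) and 1.72 (1.71 to 1.73). A −log10 q of at least 2 was reached by 557 aged-only regions (14.8%) and by 31.9% of the shared ones. All 3 measures are tied to the rule, because a wide or strong region is more likely to meet a young one, so these values only describe the set.

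**Figure D1:**
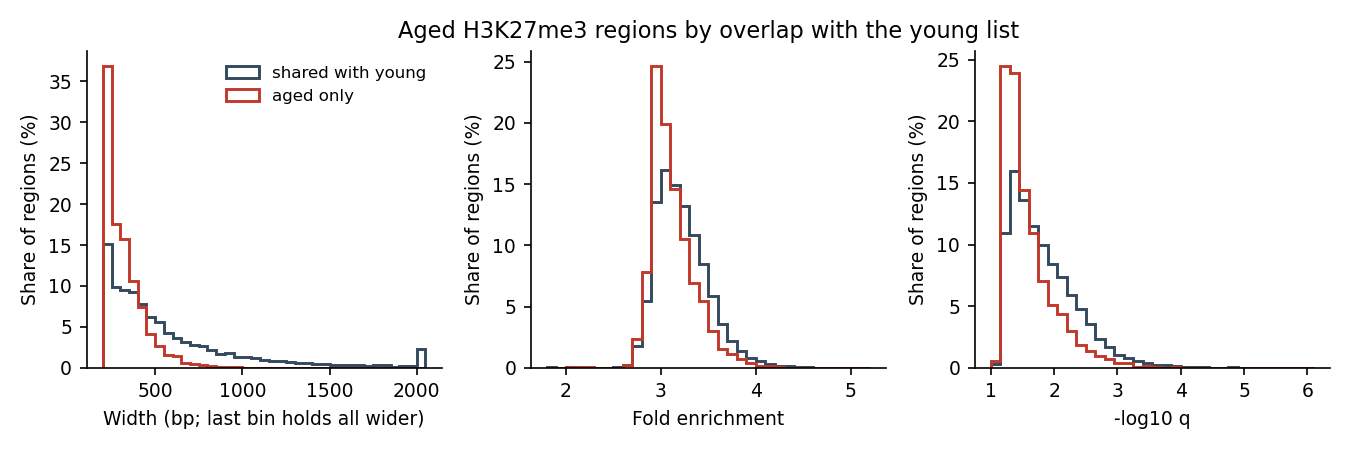
Width in bp, fold enrichment and −log10 q of aged H3K27me3 regions on chromosomes 1 to 19, as the share of regions per bin (%), for 3759 aged-only regions (red) and 12167 shared regions (dark). The fold enrichments of both sets overlapped widely, with medians of 3.07 and 3.18, while the aged-only widths gathered near 200 bp.

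The strongest aged-only regions by −log10 q included chr1:89269731-89269968 at 4.05 and 4.17-fold, intergenic and 184837 bp from a start of Agap1. Below it was chr1:190563678-190563914 at 3.99 and 3.85-fold, 347854 bp from a start of Rps6kc1. Lower still was chr19:4052909-4053164 at 3.92 and 4.26-fold, 6130 bp from a start of Gstp3, a glutathione transferase gene. Also among the 5 strongest was chr7:90300718-90300922 at 3.86 and 4.31-fold, 1329 bp from a start of Sytl2, a vesicle trafficking gene. Among the 5 highest by fold enrichment was also chr5:119700884-119701116, with 4.22-fold enrichment, 29865 bp from a start of Tbx3, a limb and heart transcription factor gene. All 5 of these regions lay outside annotated genes and none carried H2AK119ub1.

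Regions at least 50% repeat-masked were more frequent among the few calls with a −log10 q of 3 or more. Of the 36 aged-only regions with a −log10 q of 3 or more, 8 (22.2%, 11.7 to 38.1) were at least 50% repeat-masked, against 232 of 3202 (7.25%) of those under 2. In shared regions the same shares were 7.75% (5.51 to 10.8) and 4.63%. From 2 to under 3 the shares were 8.83% (6.68 to 11.6) in aged-only and 3.68% (3.11 to 4.36) in shared regions. The rise was thus not steady in shared regions. Aged-only regions at 3 or more were also narrower, with a median of 235 bp against 295 bp under 2. The part of read mapping in repeats in these calls was not tested.

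The widest aged-only region was chr2:54436933-54438314, 1382 bp in an intron near a start of Galnt13, a glycosyltransferase gene, with 3.02-fold enrichment. The second was chr18:21159935-21160901, 967 bp in an intron of Garem1, an adaptor gene of growth factor signalling, with 3.57-fold enrichment and 157 bp under aged H2AK119ub1. The third was chr13:21781322-21782287, 966 bp, 696 bp from the start of the linker histone gene Hist1h1b, with 3.24-fold enrichment and 264 bp under aged H2AK119ub1. The fourth was chr17:85632079-85633041, 963 bp, intergenic and 11047 bp from a start of Six3, a forebrain and eye transcription factor gene. The fifth was chr14:11735040-11735998, 959 bp in an intron of the receptor phosphatase gene Ptprg. Of these wide regions, only the one at Hist1h1b was more than 5 kb from a young region.

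Aged-only regions lay close to young regions. The median distance between the edges of an aged-only region and the nearest young region was 863 bp (798 to 929), with quartiles of 250.5 and 3936 bp and a range from 0 to 2202485 bp. Of 3759 regions, 437 (11.6%) lay within 100 bp (0.1 kb) of a young region, 1996 (53.1%) within 1 kb, 2918 (77.6%) within 5 kb and 3606 (95.9%) within 100 kb. Beside these shares, young regions and the bases within 1 kb of one made up 4.17% of the chromosome length, and those within 5 kb and 100 kb made up 9.26% and 43.0%. Young regions lay somewhat nearer to each other, with a median of 745 bp (734 to 756) to the next young region, although no pair within the list was closer than 241 bp. Against the young list cut to the aged number of regions, the median distance of the same aged-only regions was 5076 bp.

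**Figure D2:**
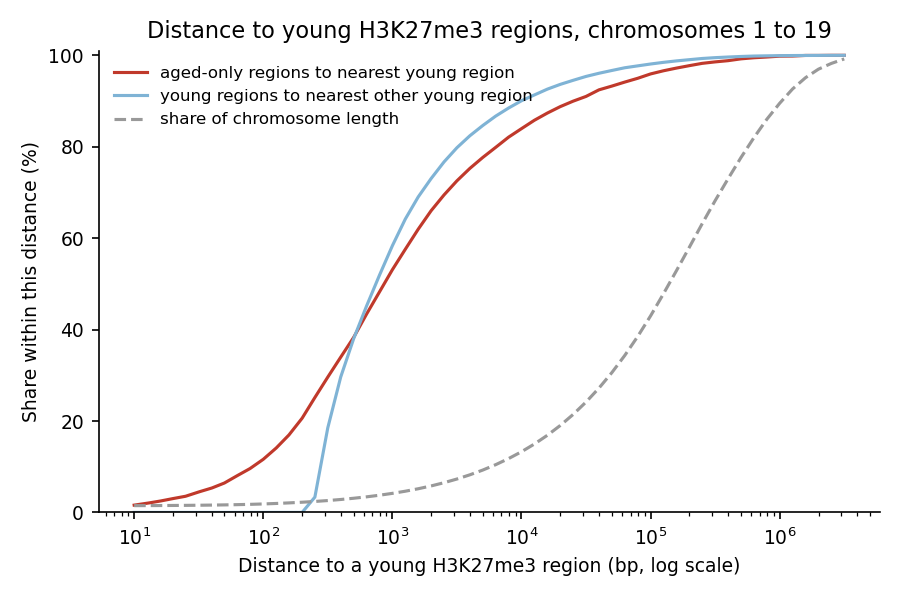
Share (%) within a given distance of a young H3K27me3 region, in bp on a log axis, for aged-only regions (red), for young regions to the nearest other young region (light blue) and for chromosome length (dashed grey). At 1 kb the aged-only curve stood at 53.1%, the young curve at 58.3% and the chromosome length at 4.17%.

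By their flanks, 1671 aged-only regions (44.5%, 42.9 to 46.0) lay in a gap with a young region within 5 kb on both sides. Another 1247 (33.2%) had a young region within 5 kb on one side, and 841 (22.4%) had none within 5 kb. Regions between young regions had a median fold enrichment of 3.09 (3.07 to 3.10), those beside one 3.07 (3.06 to 3.09) and those apart 3.03 (3.02 to 3.05). Their median GC contents were 47.0% (46.6 to 47.5), 46.0% (45.6 to 46.5) and 45.2% (44.7 to 46.0). The values of the apart regions thus stood lowest in both, by differences that were small beside the range of single regions.

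The young neighbours were not chiefly the regions that persisted in aged HSCs. The nearest young region was itself shared with the aged list for 696 of the 3759 (18.5%, 17.3 to 19.8), close to the 16.7% (16.4 to 17.0) of all young regions that were shared. Within 1 kb the share was 444 of 1996 (22.2%, 20.5 to 24.1). The distance to the nearest shared aged region had a median of 13255 bp (11601 to 14779), and 1346 aged-only regions (35.8%) had one within 5 kb.

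At the edge of the rule, widths and fold enrichments were close on both sides, and H2AK119ub1 overlap was not. The 437 aged-only regions within 100 bp of a young region had a median width of 293 bp and a median fold enrichment of 3.09, and the 732 shared regions with at most 100 bp of overlap had 302 bp and 3.09. Aged H2AK119ub1 met 4.81% of the former and 8.74% of the latter. Just inside, 8 regions touched a young region with 0 bp between them, of which 5 are named here: one 292 bp from a start of Rgs7 (3.07-fold), one in an intron of Kcnip1 (3.18-fold), one 4460 bp from a start of Gsc, a homeobox gene (3.51-fold), one in an intron of Tox2 (3.43-fold) and one in an intron of the non-coding gene Gm26871 (3.43-fold). Just outside, 9 aged regions shared 1 bp with a young region, among them chr10:87484686-87485133 (3.92-fold), chr11:81144346-81144737 (3.02-fold) and chr13:98695698-98695976 (3.25-fold).

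Far from young regions, 153 aged-only regions (4.07%) lay more than 100 kb away and 7 more than 1 Mb away. The 153 had a median width of 266 bp (250 to 294) and a median fold enrichment of 3.01 (2.98 to 3.05). Of them, 14 (9.15%, 5.53 to 14.8) lay at a promoter and 4 (2.61%, 1.02 to 6.53) overlapped aged H2AK119ub1. The farthest, chr11:26378487-26378686, lay 2202485 bp away and 7448 bp from a start of Fancl, a Fanconi anemia DNA repair gene, with 3.13-fold enrichment. A pair at the 5′ end of Sgcz, a sarcoglycan gene, followed: chr8:38660883-38661082 over an exon with UTR, 2.82-fold and 1522624 bp away, and chr8:38658567-38659387 in an intron, 821 bp wide, 2.95-fold and 1520308 bp away. The fourth, chr1:150921217-150921697, lay in an intron of the matrix gene Hmcn1 (2.96-fold, 1476977 bp) and the fifth, chr11:25357630-25357884, over an exon of the lincRNA 4933427E13Rik (2.88-fold, 1338943 bp). The other two beyond 1 Mb were in an intron of Palld, an actin-binding protein gene (3.08-fold), and 155446 bp from a start of Meis1, an HSC transcription factor gene (3.51-fold).

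Aged-only regions were largely free of the other marks, as young-only regions were too. Of all 15926 aged regions, 4261 (26.8%) overlapped an aged H2AK119ub1 region. Of the aged-only regions 136 did so (3.62%, 3.07 to 4.26), and of the shared regions 4125 (33.9%, 33.1 to 34.7). The share was lower in aged-only regions on 19 of 19 chromosomes. Regions of the young H2AK119ub1 list met 17 aged-only regions (0.452%, 0.283 to 0.723) and 10.2% (9.63 to 10.7) of shared regions, beside 7.87% of all aged regions. Only 7 aged-only regions carried H2AK119ub1 at both ages. The 2 H2AK119ub1 lists differed in size, the aged one covering 0.300% of the sequenced length and the young one 0.0393%. Shares of overlap at the 2 ages therefore do not show a gain of H2AK119ub1 at these regions. Of the young-only regions, 4.35% (4.16 to 4.55) overlapped aged and 0.744% (0.667 to 0.831) young H2AK119ub1.

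H3K4me3 was rarer still. The aged H3K4me3 list met 3 aged-only regions (0.0798%, 0.0271 to 0.234), beside 1.02% of all aged regions and 1.32% (1.13 to 1.53) of shared regions. One, with 3.09-fold H3K27me3 enrichment, covered a start of Pm20d1, a peptidase gene. The others lay at the LIM homeobox gene Lhx6 (3.02-fold) and 3587 bp from the homeobox gene Nkx3-2 (3.19-fold). The young H3K4me3 list met 8 aged-only regions (0.213%, 0.108 to 0.419), beside 2.09% of all aged regions and 2.67% (2.40 to 2.97) of shared regions. Of the young-only regions, 0.301% (0.253 to 0.358) met the aged and 0.571% (0.504 to 0.648) the young H3K4me3 list. These lists also differed in size, covering 0.0855% (aged) and 0.161% (young) of the sequenced length. In all, 3605 aged-only regions (95.9%) met no peak of either mark at either age, against 63.2% of shared regions.

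Width did not remove the difference. Among regions of 300 to 500 bp, 53 of 1426 aged-only regions overlapped aged H2AK119ub1 (3.72%, 2.85 to 4.83), against 990 of 4017 shared regions (24.6%, 23.3 to 26.0). Young-only regions of this width had 2.94% (2.68 to 3.23), close to the aged-only share. Among regions over 500 bp the shares were 8.39% (5.70 to 12.2) in aged-only, 50.5% (49.1 to 51.9) in shared and 8.88% (8.41 to 9.38) in young-only regions. Among regions narrower than 300 bp, which held 2047 of the aged-only regions, they were 2.88% (2.24 to 3.70), 18.2% (16.9 to 19.7) and 1.67% (1.48 to 1.89), so that aged-only regions stood above young-only ones there.

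**Figure D3:**
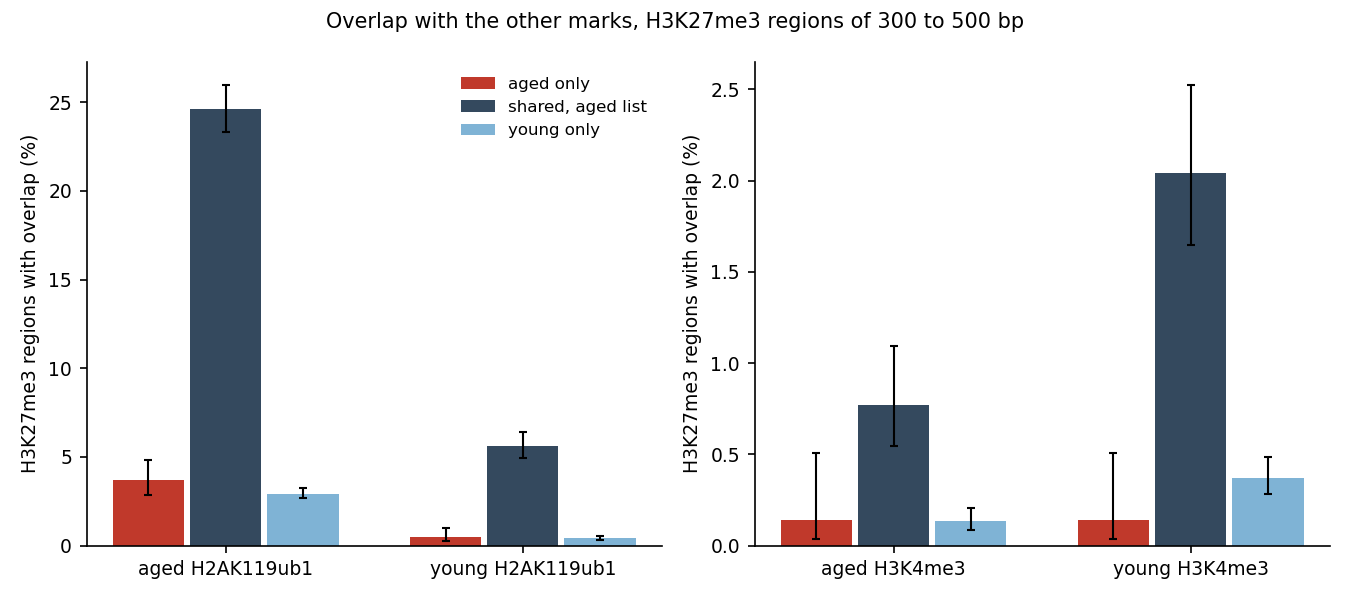
Share (%) of H3K27me3 regions of 300 to 500 bp that overlap a region of another mark by at least 1 bp, for aged-only (red, 1426), shared aged (dark, 4017) and young-only regions (light blue, 14245), with 95% Wilson intervals. Aged H2AK119ub1 met 3.72% of aged-only, 24.6% of shared and 2.94% of young-only regions; the vertical scales of both panels differ.

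Proximity to young H3K27me3 went with a higher H2AK119ub1 share. Within 1 kb of a young region 95 of 1996 aged-only regions overlapped aged H2AK119ub1 (4.76%, 3.91 to 5.78), and from over 1 to 10 kb 24 of 1160 did (2.07%, 1.39 to 3.06). The share was 2.89% (1.70 to 4.88) from over 10 to 100 kb, an interval that overlaps both others. The median distance from an aged-only region to the nearest aged H2AK119ub1 region was 30071 bp (27058 to 32529).

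The region with most bases under aged H2AK119ub1, chr8:18739846-18740397, was covered over all of its 552 bp, with 3.15-fold H3K27me3 enrichment. It lay in introns of Angpt2, an angiopoietin gene, and of the overlapping gene Mcph1. At promoters, 29 genes had an aged-only region that also overlapped aged H2AK119ub1. The widest of these regions lay at Hist1h1b, described above, and at the forkhead gene Foxp2 (914 bp, 2.95-fold, 225 bp from a young region). They were followed by Dmtn, a membrane cytoskeleton gene of red cells (648 bp, 3.55-fold, 13594 bp from a young region), Pdlim3 (642 bp, 3.05-fold) and Rgs11 (637 bp, 3.18-fold). Next were the cartilage matrix gene Acan (559 bp, 56 bp from a young region) and Dact2 (541 bp, 3.05-fold). At the myosin light chain gene Myl9 the region was covered over all 470 bp and lay 84081 bp from a young region, and at the collagen gene Col27a1 it was covered over all 455 bp and lay 15 bp from one. The last, at the cartilage gene Matn3, was 432 bp wide and 77 bp from a young region. These regions were thus found both beside young H3K27me3 and far from it.

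Aged-only regions met promoters less often than shared regions, as young-only regions did too. A promoter was met by 206 (5.48%, 4.80 to 6.25), against 2485 shared regions (20.4%, 19.7 to 21.1) and 16.9% of all aged regions, and the share was lower than in shared regions on 19 of 19 chromosomes. Young-only regions had 7.76% (7.51 to 8.02), and at 300 to 500 bp the shares were 5.68% (4.59 to 7.00) in aged-only and 6.28% (5.89 to 6.69) in young-only regions. Introns outside promoters held 1288 (34.3%, 32.8 to 35.8), exons 128 (3.41%, 2.87 to 4.03) and the space outside protein-coding genes 2137 (56.9%, 55.3 to 58.4). Coding sequence was met by 111 (2.95%, 2.46 to 3.54), against 8.36% (7.88 to 8.86) of shared regions. Gene bodies of protein-coding genes were met by 1554 (41.3%, 39.8 to 42.9), beside 46.8% of all aged regions, and such bodies made up 41.4% of the sequenced length. The median distance to the nearest protein-coding start was 29668 bp (27102 to 32430).

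The 206 promoter regions belonged to 207 genes. Of these genes, 146 also carried a young H3K27me3 region at a promoter and 61 did not. Over all 20807 protein-coding genes, 3342 (16.1%) carried a young H3K27me3 region at a promoter. The young H3K4me3 list met a promoter of 31 of the 207 genes, and the aged H3K4me3 list met one of 21. Over all protein-coding genes these lists met 7422 (35.7%) and 5144 (24.7%). The lower aged count is therefore not particular to the 207 genes, which were chosen by an H3K27me3 region at a promoter.

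Base composition differed between aged-only and shared regions, and young-only regions were nearer to the aged-only ones. Their median GC content was 46.4% (46.1 to 46.6), against 47.6% (47.5 to 47.7), and it was lower on 17 of 19 chromosomes. The median ratio of observed to expected CpG was 0.187 (0.178 to 0.193), against 0.251 (0.247 to 0.255), and young-only regions had 0.181 (0.179 to 0.182). No CpG was held by 388 aged-only regions (10.3%, 9.39 to 11.3) and by 4.05% (3.72 to 4.42) of shared regions, a count that also falls with width. A GC content above 50% with a ratio above 0.6, as in CpG islands, was found in 31 aged-only regions (0.825%, 0.582 to 1.17) and 4.92% (4.55 to 5.32) of shared regions. Young-only regions had a median GC content of 45.9%, with 8.74% holding no CpG and 1.55% meeting both island limits. Among regions of 300 to 500 bp the median ratios were 0.188 (0.179 to 0.197) and 0.235 (0.229 to 0.242).

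Chromosomes differed in how many aged-only regions they held. Per sequenced Mb, chromosome 11 held 2.63, chromosome 7 held 2.61 and chromosome 5 held 2.51, against 0.563 on chromosome 3 and 1.57 over all. As a share of the aged regions of a chromosome, aged-only regions ranged from 16.1% on chromosome 3 to 29.7% on chromosome 16. Chromosome 16 had few aged regions of any kind, 70 of 236 being aged-only.

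Aged-only regions were clustered, as the young regions among which they lay were too. Another aged-only region lay within 10 kb of 1185 (31.5%), and 64 of 2473 windows of 1 Mb held 10 or more, together 981 regions (26.1%). In the longer young list, 90.1% of regions had another young region within 10 kb. Clustering is therefore not particular to the aged-only set. The richest window, on chromosome 4 from 125000001 to 126000000, held 37 aged-only, 83 shared and 331 young regions, and 7 of the aged-only regions lay in Grik3, a kainate receptor gene, with 30 outside protein-coding genes. The window on chromosome 5 from 119000001 to 120000000 held 35, with Tbx3 and Tbx5, transcription factor genes of limb and heart, as its only protein-coding genes. All 35 lay outside both genes, whereas the 111 shared regions were densest over and beside them. Young regions covered Tbx3 almost without a break, so the rule left little room there for an aged-only region. The window on chromosome 5 from 112000001 to 113000000 held 33, of which 11 lay in Sez6l, a neuronal membrane protein gene, and 9 in Myo18b, a muscle myosin gene. That on chromosome 5 from 128000001 to 129000000 held 32 beside 27 shared and 73 young regions, with 9 in Rimbp2, a synaptic protein gene. The fifth, on chromosome 12 from 107000001 to 108000000, held 27, of which 4 lay in Bcl11b, a T lineage transcription factor gene, and 23 outside protein-coding genes. None of the aged-only regions in these 5 windows overlapped aged H2AK119ub1, and the windows held between 6 and 66 aged H2AK119ub1 regions. Over all aged-only regions the share was 3.62%, so few overlaps could be looked for among 27 to 37 regions per window.

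**Figure D4:**
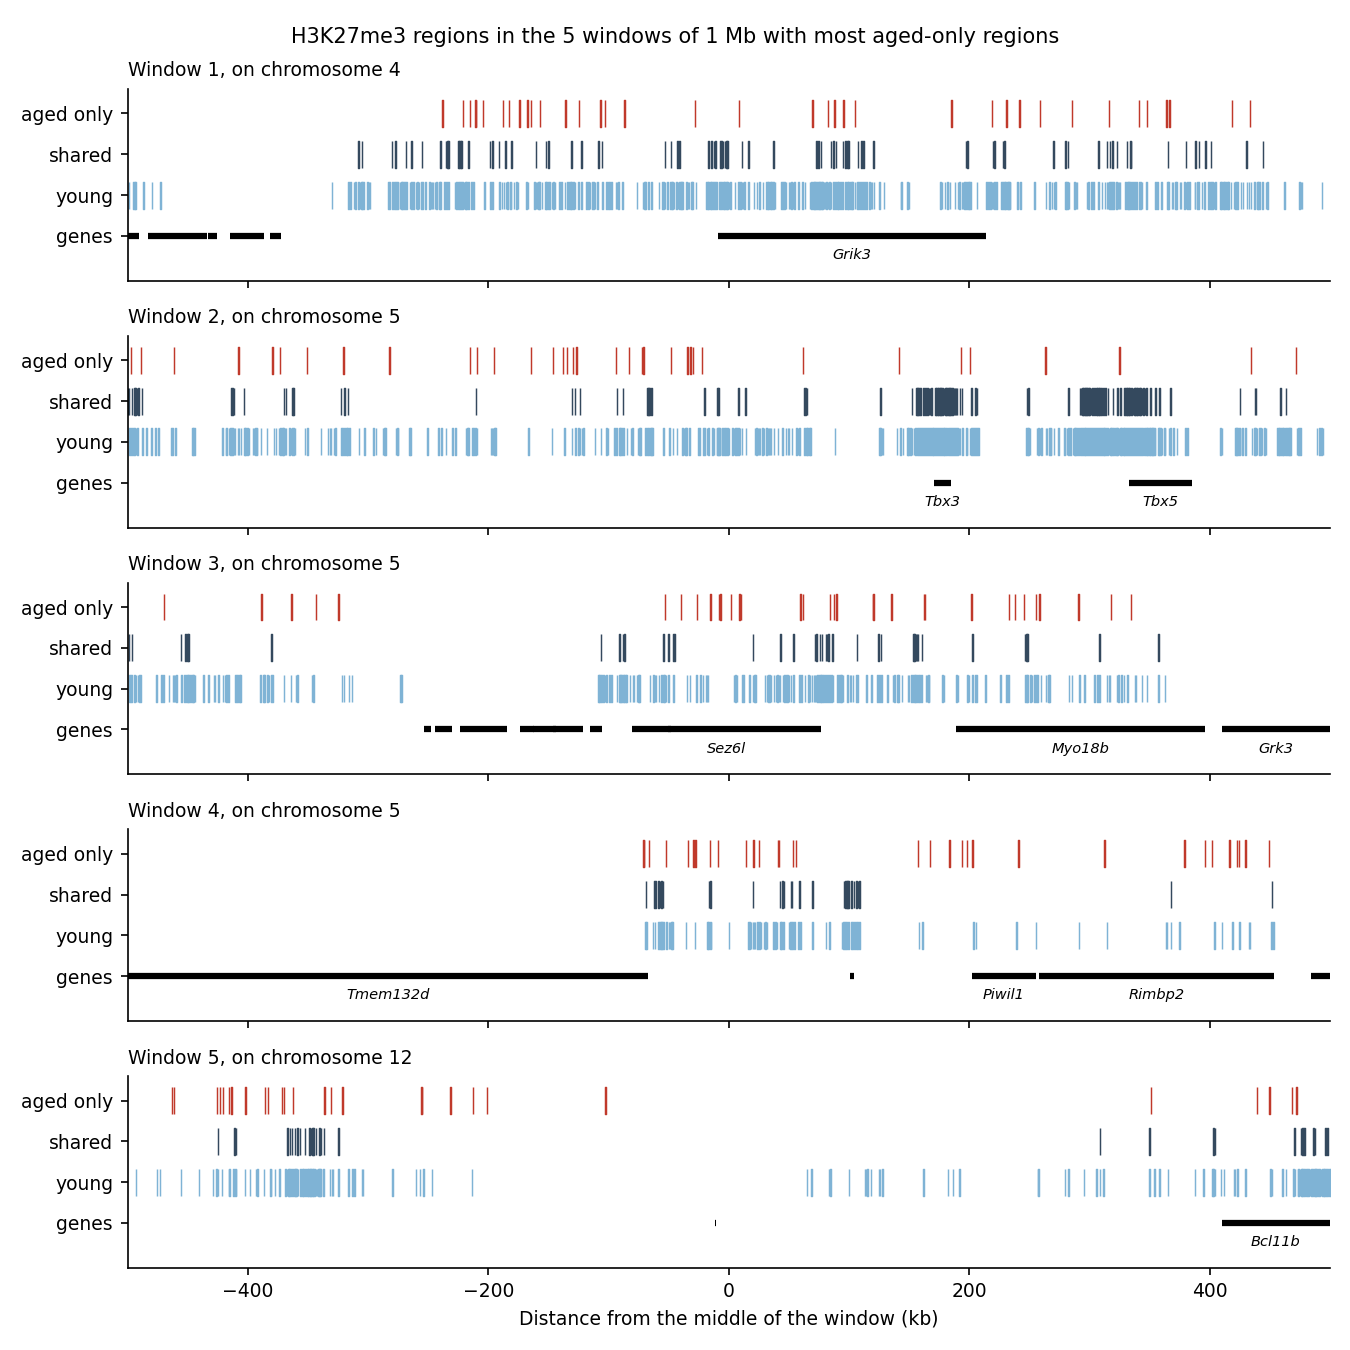
Maps of the 5 windows of 1 Mb with most aged-only H3K27me3 regions, by distance from the middle of the window in kb, with aged-only (red), shared aged (dark) and young regions (light blue) and protein-coding genes (black, the longer ones and Tbx3 named). The aged-only regions lay among the young ones, and on chromosome 5 (window 2) the 35 aged-only regions lay outside Tbx3 and Tbx5, where shared regions were dense. Young regions left few gaps over Tbx3, so the rule allowed little room there for aged-only regions.

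By gene, 896 of 20807 protein-coding genes (4.31%) held an aged-only region in the body, 613 of them 1 region and 50 at least 5. These genes were long, with a median of 81.9 kb against 17.6 kb for all protein-coding genes, so counts are given with the number per Mb, which was 1.57 over all gene bodies. Most were also marked at a promoter in young HSCs: 679 (75.8%, 72.9 to 78.5) carried a young H3K27me3 region there, against 16.1% of all genes. At promoters of these genes H3K4me3 was less frequent than in all genes, with 170 of 896 (16.5% to 21.7%) against 35.7% (35.0 to 36.3) in young and 88 (9.82%, 8.04 to 11.9) against 24.7% (24.1 to 25.3) in aged HSCs. Aged H2AK119ub1 was more frequent, with 408 (45.5%, 42.3 to 48.8) against 15.0% (14.6 to 15.5). These comparisons were not matched for gene length. The genes were chosen by an H3K27me3 region in the body, so they also differ from all genes by the mark itself. They were not compared with genes that hold shared or young-only regions.

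The gene with most aged-only regions was Fgfr2, a fibroblast growth factor receptor gene, with 27 in an annotated span of 2961 kb (9.12 per Mb). Next was Gm20388, a predicted transcript that spans 4435 kb over many other genes, with 21 (4.74 per Mb). Both spans are far longer than a usual gene body and overlap other annotated genes.

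Among the 10 genes with most aged-only regions, counts ranged only from 11 to 27, so the numbers per Mb mainly follow gene length. The shorter genes are given first. Tox2, a high mobility group transcription factor gene, held 13 in 121 kb (107 per Mb), between 0 and 4428 bp from a young region and from 2.92- to 3.43-fold enriched. Sez6l held 11 (69.6 per Mb) and Parva, a focal adhesion gene, 11 (67.0 per Mb). Tead1, the transcription factor of the Hippo pathway, held 13 in 227 kb (57.1 per Mb), beside 75 shared and 97 young regions. Tjp1, a tight junction gene, held 11 (47.5 per Mb). Every one of these 5 genes carried H3K27me3 at a promoter in both the young and the aged list.

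Among the longer genes, Csmd2, a large transmembrane protein gene, held 20 in 579.8 kb (34.5 per Mb), beside 10 shared and 85 young regions. Asic2, an acid-sensing ion channel gene, held 19 in 1088 kb (17.5 per Mb), beside 36 shared and 342 young regions, and all 19 were intronic. Cdh4, a cadherin gene, held 12 in 457 kb (26.3 per Mb), all intronic. Of the 10 genes with most aged-only regions, the aged-only regions outnumbered the shared ones in Csmd2 (20 against 10), Cdh4 (12 against 8), Sez6l (11 against 9) and Parva (11 against 6). The 10 genes were chosen for their aged-only counts, which favours such an excess. Over all protein-coding gene bodies, aged-only regions made up 20.9% of aged regions.

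Gene families were described by symbol. A member in the body was found in 14 of 41 glutamate and GABA receptor genes (34.1%, 21.6 to 49.5; 2.43 per Mb), beside the 4.31% of all genes at 1.57 per Mb. Grik3 held 7 (2.92- to 3.89-fold), Grid1 4 (3.00- to 3.40-fold) and Grm4 3 (2.98- to 3.16-fold). Synaptic adhesion genes had 11 of 42 (26.2%, 15.3 to 41.1) but, being long, only 0.779 per Mb, with 3 each in Dscaml1 and Ntm. Among cadherins and protocadherins it was 21 of 95 (22.1%, 14.9 to 31.4; 3.15 per Mb), led by Cdh4 with 12 and Cdh13 with 8. Of these 21 genes, 9 were Pcdha genes whose nested spans share the same 2 regions, and the 21 held 9 distinct sets of regions, so the interval treats as separate genes that are not. Collagen and ADAMTS genes, with ADAMTS-like genes included by symbol, had 15 of 67 (22.4%, 14.1 to 33.7; 3.86 per Mb). Of their regions, 11 were in the ADAMTS-like gene Adamtsl1 and 5 in Col27a1.

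Potassium channel and accessory genes had 17 of 92 (18.5%, 11.9 to 27.6; 2.22 per Mb), with 3 in Kcnip1 and 2 in Kcna5. Axon guidance genes had 10 of 67 (14.9%, 8.31 to 25.3; 2.01 per Mb), with 4 in the ephrin receptor gene Ephb1 and 3 each in Epha10 and Slit1. Interleukin, chemokine and receptor genes had 6 of 128 (4.69%, 2.17 to 9.85; 2.69 per Mb), with 2 in Ccr4 and 1 in Il5, the latter 232148 bp from a young region. Zinc finger protein genes had 4 of 388 (1.03%, 0.402 to 2.62), 4 of the 9 regions being in Zfp423. Olfactory and vomeronasal receptor genes had 5 of 1472 (0.340%, 0.145 to 0.793; 0.392 per Mb).

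Developmental transcription factor genes had 18 of 179 (10.1%, 6.46 to 15.3) and 3.77 aged-only regions per Mb, but 95.4 shared regions per Mb. Of the aged regions in these genes 24 were aged-only and 608 shared. Aged-only regions made up 20.9% over all protein-coding gene bodies and from 19.2% to 33.3% in the other families. This split is tied to the rule, because an aged region in a gene densely covered by young regions is more likely to be shared. A young H3K27me3 region lay at a promoter of 72.1% of these genes, against 16.1% of all genes. Pax5 held 3 (2.89- to 3.20-fold), and Lhx4, Pax3, Pax7 and Foxp2 held 2 each. In each of Pax5, Lhx4, Pax3 and Pax7 none overlapped aged H2AK119ub1, and in Foxp2 both did.

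**Figure D5:**
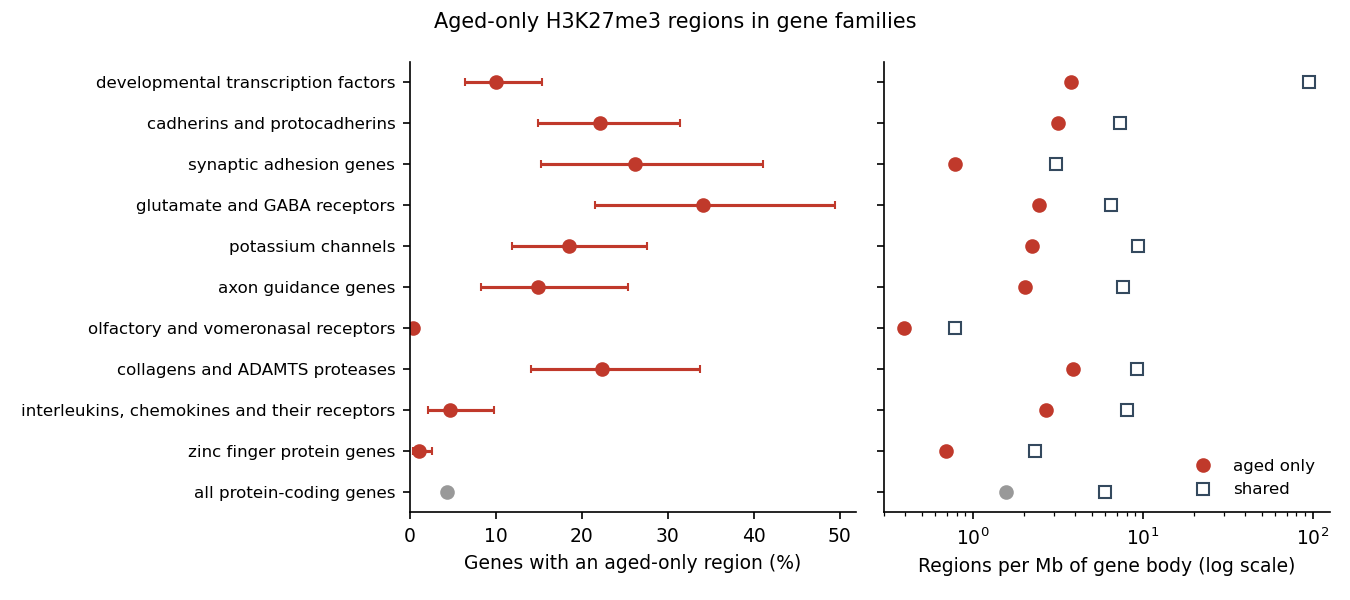
Left, the share (%) of genes of each family with an aged-only H3K27me3 region in the body, with 95% Wilson intervals; right, aged-only (circles) and shared aged regions (squares) per Mb of gene body, on a log axis. Developmental transcription factor genes held 95.4 shared but 3.77 aged-only regions per Mb, and all protein-coding genes (grey) 5.94 and 1.57. Whether an aged region counts as shared depends on how densely young regions cover the gene. The row of collagens and ADAMTS proteases includes ADAMTS-like genes.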

How the data were processed

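ChIP-seq peak lists of H3K27me3, H2AK119ub1 and H3K4me3 in young and aged HSCs were analysed, 1 list per mark and age. According to the submitters' processing notes, reads were aligned with Bowtie2 to mm10 and regions called with MACS2 2.2.6. The deposited lists give fold enrichment as a ratio and −log10 p and −log10 q, as the authors' peak caller wrote them (averages over the region in broad lists). Names inside the broad H3K27me3 and H2AK119ub1 lists carry 1 library number and those of H3K4me3 carry 2, so whether both replicates entered each list is not certain. The lists give no read depth, which is unknown here and can change how many regions are called. The −log10 p columns of the 6 deposited lists were not used.

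Regions on chromosomes 1 to 19 overlapped when they shared at least 1 bp, and distances were counted between edges. The count of members was checked with bedtools 2.31.1, and overlap and distance code was tested on simulated intervals. Genes and transcripts were those of GENCODE M21, and sequence was RefSeq GRCm38.p6, the same build. Promoters were 1 kb on either side of a protein-coding start. Shares carry Wilson intervals and medians order-statistic intervals (95%). Python 3.11.15, pandas 2.3.3, pysam 0.24.0 and matplotlib 3.10.9 were used. With pooled lists no test was run.

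Named regions were the 5 widest, strongest (by fold and by −log10 q), farthest and nearest ones and 3 just outside the rule. Named genes were the 10 with most members, promoter genes with aged H2AK119ub1 (10 at most, widest first), examples of gene families and genes nearest to named regions. Regions overlapping aged H3K4me3, those beyond 1 Mb, and the genes of the 5 richest windows outside this rule were added after their values were seen. The members and lists were chosen with earlier results of these data known. Alternatives changed the cutoff on −log10 q, the overlap, joining, the length of the young list, promoter and gene windows and region width. Some results that these rules would name are not reported here.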

Additional observations from a re-analysis of the deposited data

How the results depend on the processing

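No paired analysis was possible because the lists are pooled, 1 per mark and age, and no result comes from a test of replicates.

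The number of aged-only regions depended on the thresholds and on the chromosomes included. It was 557 with a −log10 q of at least 2 in the aged list, 864 with this cutoff in both lists, 1764 when a young region within 1 kb counted as shared, 6699 when the young list was cut to the aged number of regions, and 6940 with chromosomes X and Y. It stayed within 1.5 times of 3759 with 50% coverage (5370) or joined regions (2961). On chromosome X, which lies outside the rule, 3181 of 4493 aged regions had no young overlap. The median distance to a young region was 580 bp with a −log10 q of at least 2, 5076 bp with the cut young list and 1408 bp with joined regions.

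The share at promoters was 10.0% and 3.06% with windows of 2 kb and 500 bp, and the share within genes 50.1% over all annotated genes. Overlap with aged H2AK119ub1 was 9.71% with regions widened by 1 kb, 2.05% with 50% of the member covered and 6.10% with a −log10 q of at least 2. For young H2AK119ub1, widening gave 1.65% and 50% coverage 0.239%. For aged H3K4me3, widening gave 0.426% and the −log10 q cutoff 0%, and for young H3K4me3 they gave 1.01% and 0.718%. In all 16 such comparisons over the 4 lists the share was lower in aged-only than in shared regions. Another aged-only region lay within 5 kb of 21.1% and within 50 kb of 59.1%. The number of genes with one was 1616 with 10 kb added and 191 with a −log10 q of at least 2. GC content and the CpG ratio stayed within their intervals under both alternatives tried.

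Since the young list is longer and depth is unknown, age, depth and enrichment cannot be told apart as sources of the difference between the lists.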
